A study of Mus musculus with 15 samples.

Results

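The genes described here are 39 genes of the complement, clotting and fibrinolysis systems whose products circulate in plasma, measured in mouse liver by RNA sequencing. They were taken by symbol from a fixed list, and all 39 were found among the 15302 genes of the deposited count table. The livers came from wild-type mice on a diet labelled MASH, begun at 8 weeks of age in housing at about 29 °C, and the mice lived singly during treatment. Mice of the GDF15 group received recombinant GDF15 under the skin every morning at 1 nmol/kg, Vehicle mice served as controls, and PairFed mice were given each day the amount of food that GDF15 mice had eaten on the previous day. Each group had 5 libraries, the length of treatment is not given in the sources used here, and diet, genotype and temperature were common to all 3 groups. The question the groups address is whether GDF15 alters liver gene expression beyond the reduction in food intake.

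GDF15 is a stress-induced hormone that acts on a receptor in the hindbrain and lowers appetite. Complement is a plasma protein cascade in which recognition molecules activate proteases, the proteases cleave C3, and the terminal components assemble a pore in the target membrane. Coagulation is a parallel protease cascade that ends in thrombin cutting fibrinogen to fibrin, held in check by serpins and by the protein C system and undone by plasmin. Hepatocytes are the main source of nearly all of these proteins, and several of the genes are acute-phase genes whose transcription responds to inflammatory cytokines and glucocorticoids.

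The libraries held between 8551557 and 12994187 counts. Ordered by depth they parted most widely between 10914914 and 12137462 counts, and the 5 deeper libraries were Vehicle 4 and PairFed 2 to 5. The lowest count of any of the 39 genes in any library was 346 and the highest was 101776, so counting error was small beside the spread between libraries, and all 39 passed the filter on low counts. Together the 39 genes took 3.95% ± 0.271 of the counts in Vehicle, 3.80% ± 0.128 in GDF15 and 3.83% ± 0.186 in PairFed (SD, n = 5 each). The tissue label was matched by the hepatocyte markers: 9 of the 10 listed were in the table, none was at 0 in any library, and their summed level was 85911 to 105521 CPM (counts divided by a library's scaled total, TMM scaling) in Vehicle libraries, 98366 to 126832 CPM in GDF15 libraries and 93379 to 115319 CPM in PairFed libraries. Whether the treatment worked cannot be checked on a targeted gene, because the protein was injected.

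GDF15 treatment left most of this gene set close to its Vehicle level. The only gene of the 39 past the threshold in GDF15 against Vehicle was C8g, which encodes the gamma chain of complement component C8 and rose 1.23-fold (edgeR's quasi-likelihood test, adjusted p = 0.0439). That is 1 of 39 genes or 2.56%, beside 2.90% of all 12274 genes tested (2.02% higher and 0.880% lower), so the set held no larger share of calls than the rest of the transcriptome. PairFed against Vehicle gave 0 of 39, where 0.285% of all genes passed (0.147% higher, 0.139% lower), and GDF15 against PairFed gave 0 of 39, where 0.782% passed (0.562% higher, 0.220% lower). At an unadjusted p below 0.05 the 3 counts were 9, 1 and 3 of 39, beside 16.7%, 16.9% and 13.3% of all genes. In GDF15 against Vehicle DESeq2 called 3 genes (C8a, C8g and F9), where it called 5.23% of all genes, and limma-voom called C8g alone, where it called 2.53%. Both called 0 of 39 in the other comparisons, where DESeq2 called 2.77% and 2.09% of all genes and limma-voom 0.310% and 0.595%. Depth was partly tied to group, since 4 of the 5 deeper libraries were PairFed. When depth class was added to the fit, the genes called in the whole table went from 35 to 0 in PairFed against Vehicle and from 96 to 9 in GDF15 against PairFed. The 3 comparisons share their groups, so their values are set side by side and are not separate evidence. In bulk liver, fewer cells of a type and less RNA per cell cannot be told apart.

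The measurements were tight enough to bound most of the differences. The 95% interval of the log2 fold change lay wholly within 0.5 log2 units of 0, which is a 1.41-fold difference either way, for 35 of 39 genes in GDF15 against Vehicle, for 36 in PairFed against Vehicle and for 36 in GDF15 against PairFed. The same held for 64.8%, 65.6% and 66.7% of all genes tested. The 4 genes with an interval reaching further in at least 1 comparison were Mbl2, C6, C8a and C8b, and 3 of these encode components of the membrane attack complex. Fold changes lay above 0 for 30 of 39 genes in GDF15 against Vehicle, 24 in PairFed against Vehicle and 29 in GDF15 against PairFed, where all genes gave 48.9%, 49.9% and 50.2%. The median log2 fold changes of the 39 genes were 0.08, 0.03 and 0.06. Over the alternative analyses these ranged from 0.02 to 0.12, from -0.05 (with the depth term) to 0.06 and from 0.0090 to 0.11. Without GDF15 1 the first and last were 0.04 and 0.03. The first was 0.05 without Vehicle 1 or Vehicle 3, and the last was 0.09 without GDF15 3. The second was 0.0040 without Vehicle 1, 0.06 without PairFed 4, and turned to -0.0030 without PairFed 2 and to -0.000145 without Vehicle 3. The 20 coagulation and fibrinolysis genes made most of that lean: 19 of 20 lay above 0 in GDF15 against Vehicle with a median of 0.13, and 17 of 20 did so in each of the other comparisons with medians of 0.05 and 0.08. Over the alternative analyses these 3 counts ranged from 15 to 20, from 10 to 18 and from 13 to 19, with the lowest PairFed against Vehicle count under the depth term. The medians ranged from 0.04 to 0.16, from 0.0095 to 0.08 and from 0.02 to 0.14; the first was 0.08 without Vehicle 3 and without GDF15 1, the second was 0.01 without PairFed 2, 0.02 without Vehicle 1, 0.03 without Vehicle 3 or PairFed 1, 0.08 without Vehicle 2 and 0.07 without PairFed 4, and the last was 0.04 without GDF15 1. Of the 19 complement genes 11, 7 and 12 lay above 0, with medians of 0.03, -0.05 and 0.03. None of these kept its sign throughout: the first turned to -0.0100 with upper-quartile scaling, the second to 0.01 without Vehicle 4, and the last to -0.0034 without PairFed 4. All these fold changes rest on scaled totals, and no alternative used unscaled ones. The TMM factor was above 1 in every Vehicle library and in GDF15 5, and below 1 in GDF15 1 to 4. A lower factor raises the CPM of every gene in a library. As a share of unscaled counts the 39 genes together were lower in GDF15 (3.80%) than in Vehicle (3.95%), with overlap. That direction is opposite to the lean, and what part the scaling had in it was not tested.

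**Figure D1:**
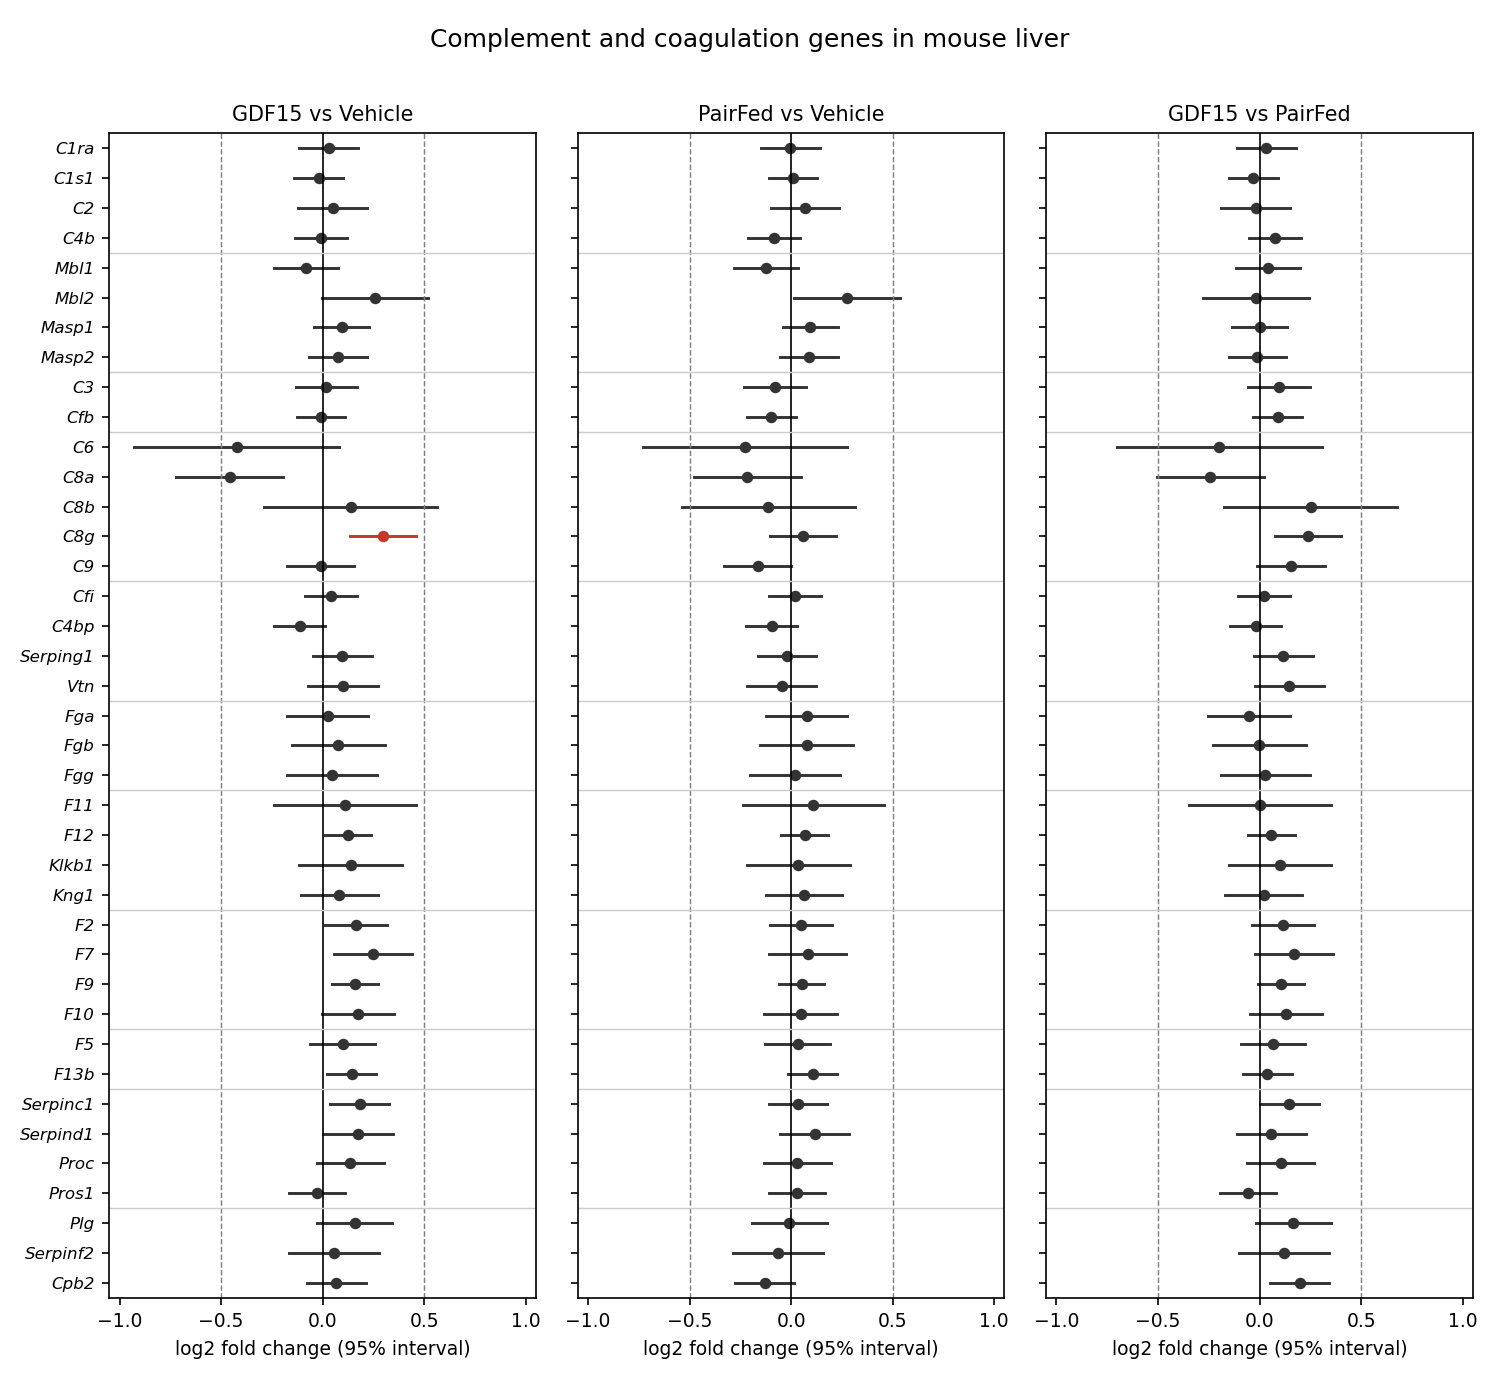
Log2 fold change (points) with its 95% interval (bars) for each of the 39 genes in the 3 comparisons, grouped by role with grey lines between groups; dashed lines mark 0.5 log2 units either side of 0, and red marks an adjusted p below 0.05. C8g in GDF15 against Vehicle is the only red point, and the widest intervals belong to C6, C8b and F11.

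The terminal pathway held the 3 fold changes farthest from 0 in GDF15 against Vehicle, those of C8a, C6 and C8g. C8 is built from an alpha chain and a gamma chain, which are disulfide-linked, and a beta chain, and it is the component that first inserts into the membrane. The level of C8g was 228, 286, 268, 266 and 263 CPM in Vehicle 1 to 5, 371, 315, 325, 301 and 298 CPM in GDF15 1 to 5, and 257, 311, 259, 261 and 277 CPM in PairFed 1 to 5. All 5 GDF15 libraries lay above all 5 Vehicle libraries, while PairFed 2 lay inside the GDF15 range. The means were 262 ± 21.2, 322 ± 29.6 and 273 ± 22.7 CPM (SD, n = 5), and the log2 fold change was 0.30 ± 0.08 (SE) for GDF15 against Vehicle, with a 95% interval of 0.14 to 0.46. Against PairFed it was 0.24 ± 0.08 with an adjusted p of 0.171, and PairFed against Vehicle gave 0.06 ± 0.08 with an adjusted p of 0.737. The call for C8g was a narrow one. It held in 8 of 25 alternative analyses, and of the 15 that left out a library it held without Vehicle 2 (adjusted p = 0.0399), GDF15 5 (0.0416) or PairFed 2 (0.0334) and was lost in the other 12. Its adjusted p ranged from 0.00921 to 0.690, while its log2 fold change stayed between 0.24 and 0.33. When the deeper libraries had a term of their own in the fit, the adjusted p was 0.0413; in the shallower libraries alone it was 0.111. The highest adjusted p came with the mean level of immediate-early genes, the first genes that stimulated cells switch on, as a covariate; that level stood 0.70 log2 units above the Vehicle mean in GDF15 and 0.36 above it in PairFed, and with it in the fit C8g had a log2 fold change of 0.26 and only 8 genes of the whole table passed.

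The alpha chain gene C8a lay on the other side of 0, just short of the threshold. Its level was 353, 452, 355, 379.6 and 362 CPM in Vehicle 1 to 5, 243, 251, 259.7, 339.7 and 291 CPM in GDF15 1 to 5, and 313, 353, 429, 259 and 284 CPM in PairFed 1 to 5. Again no GDF15 library overlapped the Vehicle range, this time with GDF15 below, and the PairFed libraries spanned both ranges. The log2 fold change of C8a was -0.46 ± 0.12 (SE) in GDF15 against Vehicle, with a 95% interval of -0.72 to -0.19 and an adjusted p of 0.0582, which is just outside the threshold. It passed in 7 of 25 alternatives, among them DESeq2 (adjusted p = 0.0148) and the analysis of these groups without PairFed (0.0357). The 7 include the fits without GDF15 4 (0.0292), PairFed 3 (0.0255) or PairFed 4 (0.0438). Over all 25 its adjusted p ranged from 0.0148 to 0.7098. For PairFed against Vehicle the value was -0.22 ± 0.12 (adjusted p = 0.392) and for GDF15 against PairFed -0.24 ± 0.12 (adjusted p = 0.415). Without PairFed 3 these became -0.33 and -0.13, and without PairFed 4 the first became -0.14.

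C8b, the beta chain gene, had 48.0, 69.8, 51.0, 89.7 and 54.6 CPM in Vehicle 1 to 5, 63.2, 61.1, 61.2, 90.1 and 69.5 CPM in GDF15 1 to 5, and 53.8, 66.5, 78.8, 42.9 and 48.3 CPM in PairFed 1 to 5. The 3 groups overlapped broadly, and Vehicle 4 and GDF15 4 stood highest. Its log2 fold changes were 0.14 ± 0.20, -0.11 ± 0.20 and 0.25 ± 0.20 in the 3 comparisons, with adjusted p-values of 0.790, 0.813 and 0.642. The interval of the last value reached 0.68, so a difference of that size in C8b could not be told from none. That value was 0.14 without GDF15 4, 0.16 without PairFed 4, 0.39 without PairFed 3 and 0.59 with the depth term.

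**Figure D2:**
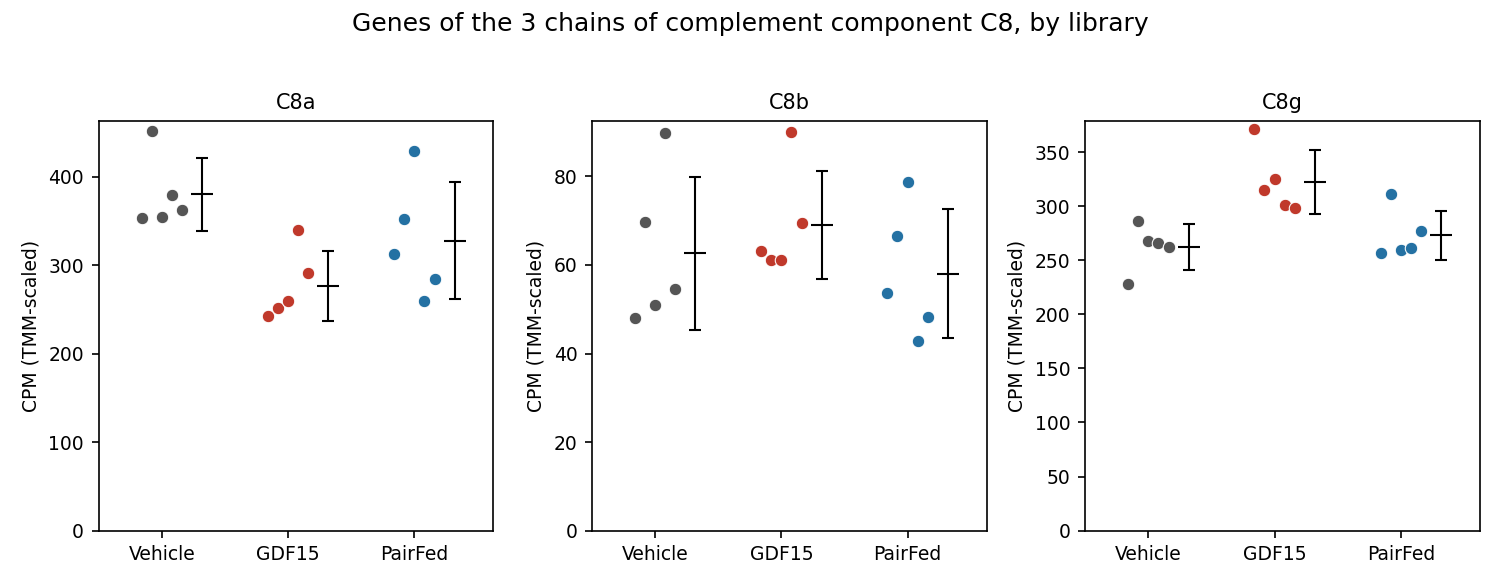
Level (CPM, from 0) of the C8 chain genes in each library, with mean and SD of the 5 libraries of a group beside the points. GDF15 points lie below all Vehicle points for C8a and above all Vehicle points for C8g, and the groups overlap for C8b.

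C8a and C8b are neighbours on chromosome 4 and are transcribed towards each other, C8b on the plus strand from 104766317 to 104804548 and C8a on the minus strand from 104815679 to 104876487, with 11.1 kb between their ends (GRCm38.p6). C8g lies on chromosome 2, on the minus strand from 25498650 to 25501777. Their upstream sequences are shown because the balance between these chain genes is compared next. They are RefSeq sequences of GRCm38.p6, 5′ to 3′ on the strand of the gene, and capitals mark letters of the motifs searched: GTTAAT, a core of the HNF1 site, and TTNNGNAA, a core of the C/EBP site, on either strand. The runs are C8a at chr4:104876488-104876648 (minus strand, positions -250 to -90 from the transcript start), C8b at chr4:104766067-104766316 (plus strand, -250 to -1) and C8g at chr2:25501778-25501935 (minus strand, -216 to -59). Bases inside the gene limits above or in an annotated untranslated region were left out. The transcript starts used for C8a and C8g lie inside those limits, so their runs end at the gene edge. The C8g run opens at -216 because an untranslated region of Fbxw5 lies before it.
C8a: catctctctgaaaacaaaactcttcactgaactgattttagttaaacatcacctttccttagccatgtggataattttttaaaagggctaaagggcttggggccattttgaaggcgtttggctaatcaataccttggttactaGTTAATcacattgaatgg
C8b: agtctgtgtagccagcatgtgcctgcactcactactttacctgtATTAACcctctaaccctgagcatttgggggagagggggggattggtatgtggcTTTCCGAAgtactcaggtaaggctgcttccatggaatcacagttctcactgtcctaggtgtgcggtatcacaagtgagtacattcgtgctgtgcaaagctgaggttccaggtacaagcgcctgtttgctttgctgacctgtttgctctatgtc
C8g: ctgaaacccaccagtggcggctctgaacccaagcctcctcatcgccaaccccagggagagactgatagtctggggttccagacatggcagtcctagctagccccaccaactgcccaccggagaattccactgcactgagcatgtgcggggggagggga
GTTAAT or its reverse complement ATTAAC was in the windows of C8a and C8b, in 8 of the 30 genes of the set with a window, and in 6.47% of all 32536 windows of 250 bases. TTNNGNAA was in the window of C8b, in 15 of 30 genes of the set and in 36.8% of all windows. No motif searched was in the C8g run. A second C8g window, not shown, held TGTTCT, a core of the glucocorticoid receptor site, as AGAACA at -151 to -146. A match is a description of letters and says nothing of binding.

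Because the chains go into a shared protein, the balance between them was compared as a log2 ratio of CPM within each library. The ratio of C8a to C8b was 2.88, 2.70, 2.80, 2.08 and 2.73 in Vehicle 1 to 5, 1.94, 2.04, 2.09, 1.91 and 2.07 in GDF15 1 to 5, and 2.54, 2.41, 2.44, 2.60 and 2.56 in PairFed 1 to 5. The GDF15 libraries sat together below all PairFed libraries and below 4 of the 5 Vehicle libraries, and Vehicle 4 sat with the GDF15 libraries. The difference of means was -0.63 for GDF15 against Vehicle (exact permutation test, two-sided, p = 0.0159, adjusted p = 0.111) and -0.50 for GDF15 against PairFed (exact permutation p = 0.00794, adjusted p = 0.0833), the second being the smallest p that 252 arrangements of 5 against 5 allow. For C8a to C8g the means were 0.53 ± 0.109 in Vehicle, -0.22 ± 0.302 in GDF15 and 0.24 ± 0.294 in PairFed (SD, n = 5). GDF15 lay 0.76 log2 units lower than Vehicle without overlap, a difference of -0.76 (exact permutation p = 0.00794, adjusted p = 0.0833), and differed from PairFed by -0.47 (exact permutation p = 0.0317, adjusted p = 0.167). Every GDF15 library lay below Vehicle for C8a and above it for C8g. The separation of this ratio from Vehicle and its p therefore follow from those levels and are not separate evidence. None of the 21 ratio comparisons, of which these are 4, passed 0.05 after adjustment. A lone ratio at the smallest possible p could not pass after adjustment over 21, and several would have to reach it together. The lack of calls therefore does not show that the balance was unchanged.

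**Figure D3:**
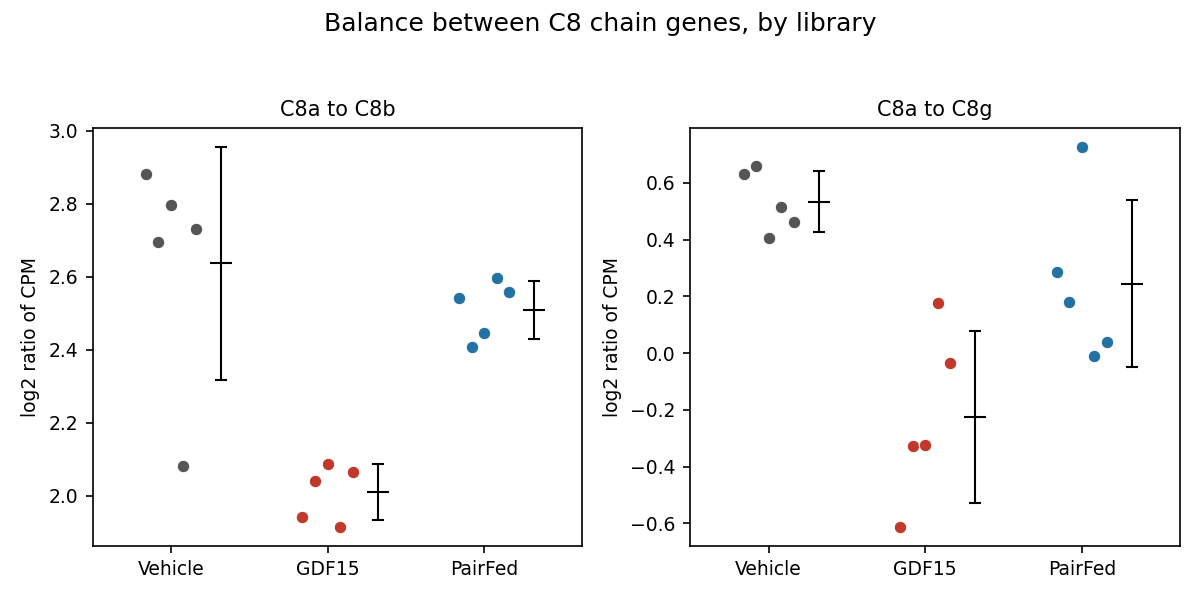
Log2 ratio of C8a to C8b (left) and of C8a to C8g (right) in each library, with mean and SD of the 5 libraries per group; the vertical axes do not start at 0. On the left the GDF15 points lie between 1.91 and 2.09, below all PairFed points, and Vehicle 4 is the lone Vehicle point near them.

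The other terminal pathway genes among the 39 were C6 and C9. The product of the first joins the growing complex before C8, while that of the second polymerises into the pore. Hc, which encodes C5, and C7 belong to this pathway too but were listed apart from the 39. Mean levels in Vehicle, GDF15 and PairFed were 774, 758 and 707 CPM for Hc and 1.49, 0.999 and 0.927 CPM for C7. C6 had 104, 101, 146, 86.7 and 118 CPM in Vehicle 1 to 5, 50.2, 54.5, 108, 103 and 96.2 CPM in GDF15 1 to 5, and 82.7, 103, 130.5, 76.4 and 81.4 CPM in PairFed 1 to 5. GDF15 1 and 2 stood well below every other library, and the remaining GDF15 libraries lay within the Vehicle range. With a within-group SD of 0.394 log2 units, the largest of the 39 genes, the log2 fold changes of C6 were -0.42 ± 0.23 (adjusted p = 0.398), -0.23 ± 0.23 (0.662) and -0.20 ± 0.23 (0.777). C9 had 369.9, 323, 407, 339 and 369 CPM in Vehicle 1 to 5, 362, 321, 368, 391 and 352 CPM in GDF15 1 to 5, and 272, 332, 315, 333 and 358 CPM in PairFed 1 to 5. The PairFed mean of C9 was the lowest, but the groups overlapped, with log2 fold changes of -0.01 ± 0.08, -0.17 ± 0.08 (adjusted p = 0.295) and 0.15 ± 0.08 (0.409).

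Upstream of the terminal pathway the classical genes were flat. C1ra and C1s1 encode the proteases of the C1 complex, and C2 and C4b encode the components that this complex cleaves to form the C3 convertase. In GDF15 against Vehicle their log2 fold changes ran from -0.02 (C1s1) to 0.05 (C2), and in PairFed against Vehicle from -0.08 (C4b) to 0.07 (C2), with 0.497 as the lowest adjusted p of the 3 comparisons. C4b, C1ra and C1s1 have near-identical copies elsewhere in the mouse genome, and their reads may be shared with them.

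The lectin pathway starts from mannose-binding lectins, which bind microbial sugars, and their proteases. Mbl2 had 201, 279, 245, 236 and 272 CPM in Vehicle 1 to 5, 377, 285, 307, 283 and 224 CPM in GDF15 1 to 5, and 309, 331, 256, 258 and 338 CPM in PairFed 1 to 5. It stood highest in GDF15 1 and lowest in Vehicle 1, and the groups overlapped. Its log2 fold change was 0.26 ± 0.12 in GDF15 against Vehicle (adjusted p = 0.309) and 0.27 ± 0.12 in PairFed against Vehicle (0.273), with -0.02 ± 0.12 between GDF15 and PairFed. The related lectin gene Mbl1 had log2 fold changes of -0.08, -0.12 and 0.04, and the protease genes Masp1 and Masp2 lay between -0.01 and 0.09 in all 3 comparisons. Exons of Masp2 share bases with Tardbp on the other strand, and the strand setting of the counting is not given in the sources used here.

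C3, the component on which the activation routes meet, had 5846 to 7456 CPM in Vehicle, 5886 to 7170.4 CPM in GDF15 and 5894 to 6517 CPM in PairFed. These ranges overlap almost completely, and the log2 fold changes were 0.02 ± 0.07, -0.08 ± 0.07 and 0.10 ± 0.07. Cfb, the protease of the alternative-pathway convertase, differed by -0.01 ± 0.06, -0.10 ± 0.06 and 0.09 ± 0.06. Both genes are classical acute-phase genes, and the lowest adjusted p of either was 0.397. Cfb and C2 lie 87 bases apart on the minus strand of chromosome 17, under an annotated readthrough gene that is not in the table.

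Among the complement inhibitors, C4bp, which encodes a chain of C4b-binding protein and helps to inactivate C4b, had 655, 715, 632, 703 and 696 CPM in Vehicle 1 to 5. The GDF15 libraries had 640.03, 612, 643, 661 and 589 CPM and the PairFed libraries 672, 673, 643, 592 and 605 CPM. Most GDF15 and PairFed values fell in or just under the lower part of the Vehicle range, with log2 fold changes of -0.11 ± 0.06 (adjusted p = 0.364), -0.09 ± 0.06 (0.431) and -0.02 ± 0.06. Cfi, the protease that degrades C3b and C4b, Serping1, the C1 inhibitor, and Vtn, vitronectin, which blocks pore assembly, had log2 fold changes between -0.05 and 0.15, and none passed the threshold in any comparison.

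Fibrinogen is made from 3 chains encoded by Fga, Fgb and Fgg, which lie together on chromosome 3 with 11.1 kb between Fgg and Fga and 8.62 kb between Fga and Fgb. Fga had 3462 to 4267 CPM in Vehicle, 3442 to 4631 CPM in GDF15 and 3572 to 4962 CPM in PairFed. Fgb ran from 2792 to 3864, from 3055 to 3852 and from 2794 to 4244 CPM, and Fgg from 2428 to 3221, from 2572 to 3307 and from 2387 to 3603 CPM. The groups overlapped for every chain, PairFed 2 was the highest library for all 3, and the 9 log2 fold changes lay between -0.05 and 0.08 with 0.724 as the lowest adjusted p. The chains moved together from library to library: the within-group SD of the log2 ratios was 0.0886 for Fga to Fgb, 0.0547 for Fga to Fgg and 0.0698 for Fgb to Fgg, against 0.157, 0.187 and 0.180 for the levels of Fga, Fgb and Fgg. Ratios cancel the scaling of a library, so part of this is arithmetic, and no ratio of fibrinogen chains passed the exact permutation test after adjustment (lowest adjusted p = 0.2, Fga to Fgg in GDF15 against PairFed).

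**Figure D4:**
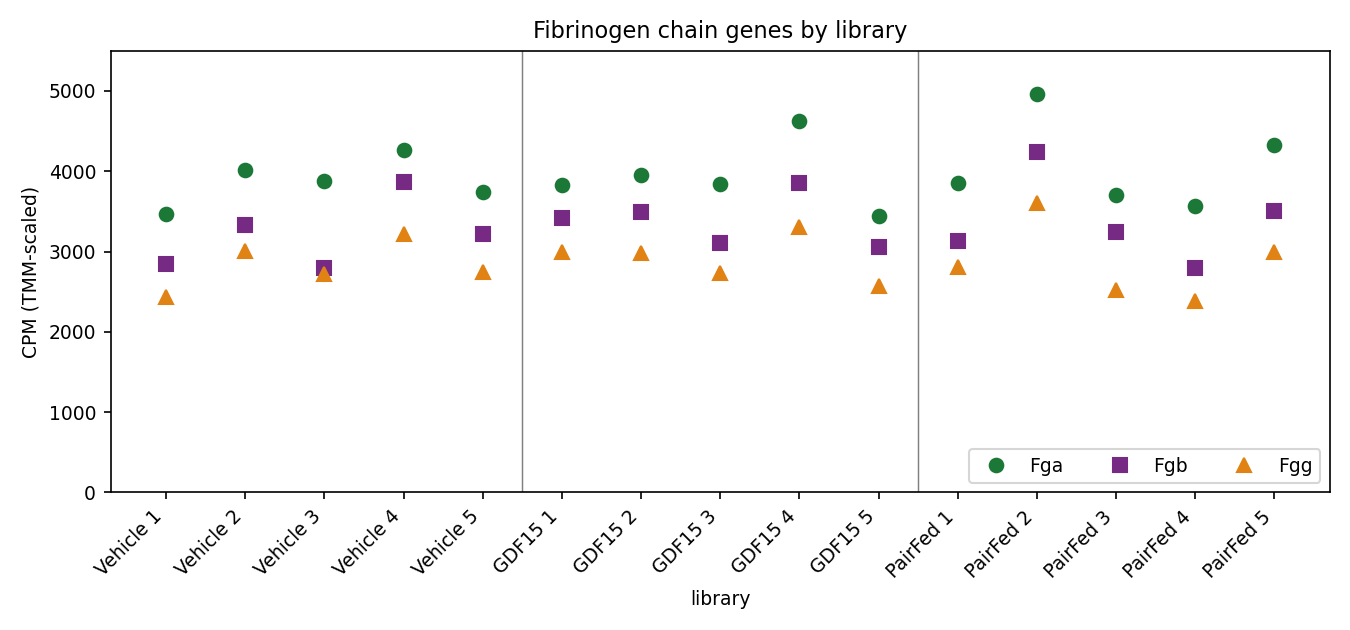
Level (CPM, from 0) of the fibrinogen chain genes in each of the 15 libraries; vertical lines divide the groups. The symbols go up and down together, with PairFed 2 highest for each chain; heights are not compared between chains, because the counts are not scaled to transcript length.

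The upstream sequences of these genes are shown because the 3 levels moved together. They are RefSeq sequences of GRCm38.p6 on the strand of the gene: Fga at chr3:83025903-83026075 (plus strand, positions -250 to -78), Fgb at chr3:83049864-83050113 (minus strand, -250 to -1) and Fgg at chr3:83007474-83007723 (plus strand, -250 to -1). Capitals mark GTTAAT, TTNNGNAA, the interleukin response letters CTGGGAA and the glucocorticoid receptor core TGTTCT, searched on both strands. The Fga run stops at -78, where an annotated untranslated region of Fga begins. Beyond that run the Fga window also held GTTAAT, as ATTAAC at -43 to -38.
Fga: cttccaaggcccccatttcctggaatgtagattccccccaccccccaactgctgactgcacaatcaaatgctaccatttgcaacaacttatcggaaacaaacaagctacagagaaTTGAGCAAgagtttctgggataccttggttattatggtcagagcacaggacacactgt
Fgb: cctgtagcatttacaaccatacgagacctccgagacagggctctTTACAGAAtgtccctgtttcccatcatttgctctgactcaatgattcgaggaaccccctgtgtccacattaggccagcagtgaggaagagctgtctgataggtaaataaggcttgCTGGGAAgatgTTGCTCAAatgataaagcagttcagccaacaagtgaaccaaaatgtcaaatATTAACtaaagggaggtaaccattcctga
Fgg: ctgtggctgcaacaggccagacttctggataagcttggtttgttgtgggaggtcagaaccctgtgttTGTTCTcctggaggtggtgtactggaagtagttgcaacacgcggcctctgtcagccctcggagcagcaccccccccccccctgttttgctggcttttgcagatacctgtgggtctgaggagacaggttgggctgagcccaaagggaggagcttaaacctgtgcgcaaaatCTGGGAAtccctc
CTGGGAA was in the Fgb and Fgg windows, in 5 of 30 genes of the set and in 9.14% of all windows. TGTTCT was in the Fgg window, in 10 of 30 genes and in 16% of all windows. TTGCGCAA and CAAAGTCCA, sites of C/EBP and HNF4, were in none of the 30 and in 0.166% and 0.387% of all windows. The full palindromic sites of HNF1 and of the glucocorticoid receptor were likewise in none of the 30 and each in 0.00922% of all windows, and TATAAA was in 2 of 30 and in 12.3% of all windows.

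The contact system starts clotting on charged surfaces and frees bradykinin. F11 encodes factor XI, which activates factor IX, and had 34.2, 53.2, 40.4, 59.7 and 53.9 CPM in Vehicle 1 to 5, 63.0, 41.8, 49.0, 54.6 and 52.9 CPM in GDF15 1 to 5, and 45.7, 58.6, 67.8, 46.5 and 42.2 CPM in PairFed 1 to 5. The groups overlapped throughout, and the log2 fold changes were 0.11 ± 0.16, 0.11 ± 0.16 and 0.00041 ± 0.16. For F12, the factor XII gene and the least variable of the 39 (within-group SD 0.0604 log2 units), Vehicle had 489.6 to 512 CPM, GDF15 512 to 586 CPM and PairFed 501 to 554 CPM. Its GDF15 and Vehicle ranges did not overlap but touched at their edges, and the log2 fold change was 0.12 ± 0.05 with an adjusted p of 0.253. Klkb1, plasma prekallikrein, and Kng1, kininogen, differed by 0.02 to 0.14 in the 3 comparisons, and neither passed the threshold. Reads of Kng1 may be shared with Kng2. Exons of Klkb1 share 2267 bases with Gm45753 on the same strand, a gene that is not in the table.

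The vitamin K-dependent clotting enzymes are proteases that need gamma-carboxylation. The 4 genes F2, F7, F9 and F10 had log2 fold changes of 0.16, 0.25, 0.16 and 0.17 in GDF15 against Vehicle, and none passed the threshold. F7, whose product starts clotting with tissue factor, had 59.1, 59.9, 55.7, 68.0 and 59.5 CPM in Vehicle 1 to 5, 79.9, 82.2, 64.2, 72.2 and 61.4 CPM in GDF15 1 to 5, and 55.6, 76.0, 64.1, 60.4 and 63.5 CPM in PairFed 1 to 5. GDF15 1 and 2 were highest, and GDF15 3 and 5 lay within the Vehicle range (0.25 ± 0.09, 95% interval 0.06 to 0.44, adjusted p = 0.157). F9, the factor IX gene on chromosome X, had 189 to 203 CPM in Vehicle, 205 to 224 CPM in GDF15 and 188 to 216 CPM in PairFed. Its GDF15 libraries lay just above all Vehicle libraries, with a log2 fold change of 0.16 ± 0.05 and an adjusted p of 0.127. F2 encodes prothrombin and F10 factor X, its activator; their adjusted p-values in GDF15 against Vehicle were 0.260 and 0.312. In PairFed against Vehicle the 4 values lay between 0.05 and 0.08, and in GDF15 against PairFed between 0.11 and 0.17.

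In GDF15 against Vehicle, 4 of the 39 genes (C8a, C8g, F9 and F12) had groups that did not overlap, which is 10.3% beside 3.99% of all genes. The count was 0 of 39 in PairFed against Vehicle, beside 3.92%, and 0 of 39 in GDF15 against PairFed, beside 2.86%. For F9 and F12 the groups nearly touched: the highest Vehicle and lowest GDF15 libraries had 203.4 and 204.5 CPM of F9, and 511.55 and 512.13 CPM of F12.

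The cofactor gene F5 and the gene F13b, for the carrier chain of the fibrin cross-linking enzyme, had log2 fold changes of 0.10 ± 0.08 and 0.14 ± 0.06 in GDF15 against Vehicle (adjusted p = 0.554 and 0.209). Of the anticoagulant genes, Serpinc1, antithrombin, gave 0.18 ± 0.07 (0.170) and Proc, protein C, 0.13 ± 0.08 (0.417). Exons of Serpinc1 share 2942 bases with Zbtb37 on the other strand, so its counts may depend on the strand setting, which is not given. Serpind1, heparin cofactor II, had 418, 529, 405, 469.6 and 479.98 CPM in Vehicle 1 to 5, 562, 512, 471, 562 and 488 CPM in GDF15 1 to 5, and 552, 529, 455, 467 and 491 CPM in PairFed 1 to 5. These libraries overlapped, and the log2 fold changes were 0.17 ± 0.08, 0.12 ± 0.08 (adjusted p = 0.488) and 0.06 ± 0.08. Pros1, protein S, the cofactor of protein C, was the only one of the 20 coagulation and fibrinolysis genes below 0 in GDF15 against Vehicle. It had 69.3, 55.7, 70.1, 65.9 and 72.0 CPM in Vehicle 1 to 5, 63.9, 61.6, 67.3, 63.7 and 69.8 CPM in GDF15 1 to 5, and 71.0, 68.6, 63.9, 67.4 and 68.8 CPM in PairFed 1 to 5. Those values overlap in full, and the log2 fold changes were -0.03 ± 0.07, 0.03 ± 0.07 and -0.06 ± 0.07 (adjusted p = 0.767 for the last).

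Fibrinolysis is represented by Plg, the plasmin precursor, Serpinf2, the plasmin inhibitor, and Cpb2, a carboxypeptidase that slows clot lysis. Cpb2 had 304, 329, 306, 316 and 295 CPM in Vehicle 1 to 5, 346, 333, 313, 328 and 302 CPM in GDF15 1 to 5, and 298, 328, 267, 269.6 and 252 CPM in PairFed 1 to 5. PairFed 3 to 5 lay below every other library, and PairFed 2 lay among the GDF15 libraries. The log2 fold change of Cpb2 was 0.20 ± 0.07 in GDF15 against PairFed (95% interval 0.05 to 0.34, adjusted p = 0.210) and -0.13 ± 0.07 in PairFed against Vehicle (0.340). Plg gave 0.16 ± 0.09 (0.395), -0.01 ± 0.09 and 0.17 ± 0.09 (0.430), and Serpinf2 lay between -0.06 and 0.12.

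Much of the variation among these genes was between libraries of the same group. Of the 39 genes, 5 stood above the Vehicle mean in Vehicle 1 and 7 in Vehicle 3, but 32 in Vehicle 2 and 31 in Vehicle 4. The GDF15 libraries ranged from 18 genes above it (GDF15 3) to 33 (GDF15 4), and the PairFed libraries from 9 (PairFed 4) to 30 (PairFed 2). The median distance of the 39 genes from the Vehicle mean was -0.11 to 0.08 log2 units in Vehicle libraries, -0.03 to 0.16 in GDF15 libraries and -0.09 to 0.13 in PairFed libraries, so these ranges overlap. The within-group SD was below 0.2 log2 units for 33 of the 39 genes, with a median of 0.122. GDF15 1 was the highest of the 15 libraries for 16 of the 39 genes, among them C8g, Mbl2, F2 and Plg. It was also the highest for 6 of 9 hepatocyte markers. Its TMM factor, 0.916, was the lowest of the 15, which raises its CPM for every gene. The same count over all genes is not given here. The same library was the lowest of the 15 for 15 of 21 markers of Kupffer, endothelial and stellate cells.

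Markers of the cell types in the tissue are given beside the lean of the coagulation genes towards higher values. Of 9 hepatocyte markers 8 lay above 0 in GDF15 against Vehicle with a median of 0.26, where 48.9% of all genes lay above 0. Of the 9 markers 2 rose, where 2.02% of all genes were called higher. These were Apoc3 with a log2 fold change of 0.30 (adjusted p = 0.0495) and Tat with 1.66 (0.0167). The Apoc3 call was close to the threshold, and whether either call held in the alternative analyses is not given here. The hepatocyte medians were 0.04 in PairFed against Vehicle and 0.18 in GDF15 against PairFed. In both 0 of 9 passed, beside 0.285% and 0.782% of all genes. Of 7 stellate cell markers 0 lay above 0 in GDF15 against Vehicle, with a median of -0.33 and none past the threshold. Their summed level was 364 to 631 CPM in Vehicle, 216 to 507 in GDF15 and 309.9 to 497 in PairFed. All 8 endothelial markers lay above 0 in PairFed against Vehicle (median 0.36) and below 0 in GDF15 against PairFed (median -0.42). In these comparisons 49.9% and 50.2% of all genes lay above 0. No endothelial marker passed the threshold, and their summed levels were 116 to 176, 82.6 to 217 and 137 to 236 CPM. The bile duct markers had medians of -0.20, -0.60 and 0.51 over 5 genes, with summed levels of 193 to 469.8, 126 to 312 and 152 to 266 CPM. Of these Sox9 fell in PairFed against Vehicle by 1.31 on the log2 scale (adjusted p = 0.0336), where 0.139% of all genes were called lower. This call was lost with the depth term and with the immediate-early covariate, where no gene of the whole table passed in that comparison. The same held without Vehicle 1, Vehicle 3, PairFed 2 or PairFed 4. The 6 Kupffer cell markers had medians of 0.11, -0.04 and 0.19, none past the threshold, and summed levels of 221 to 342, 163 to 388 and 232 to 321 CPM. No gene of these 4 lists of other cell types was at 0 in any library. What part the cell composition of the samples had in the lean was not tested.

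**Figure D5:**
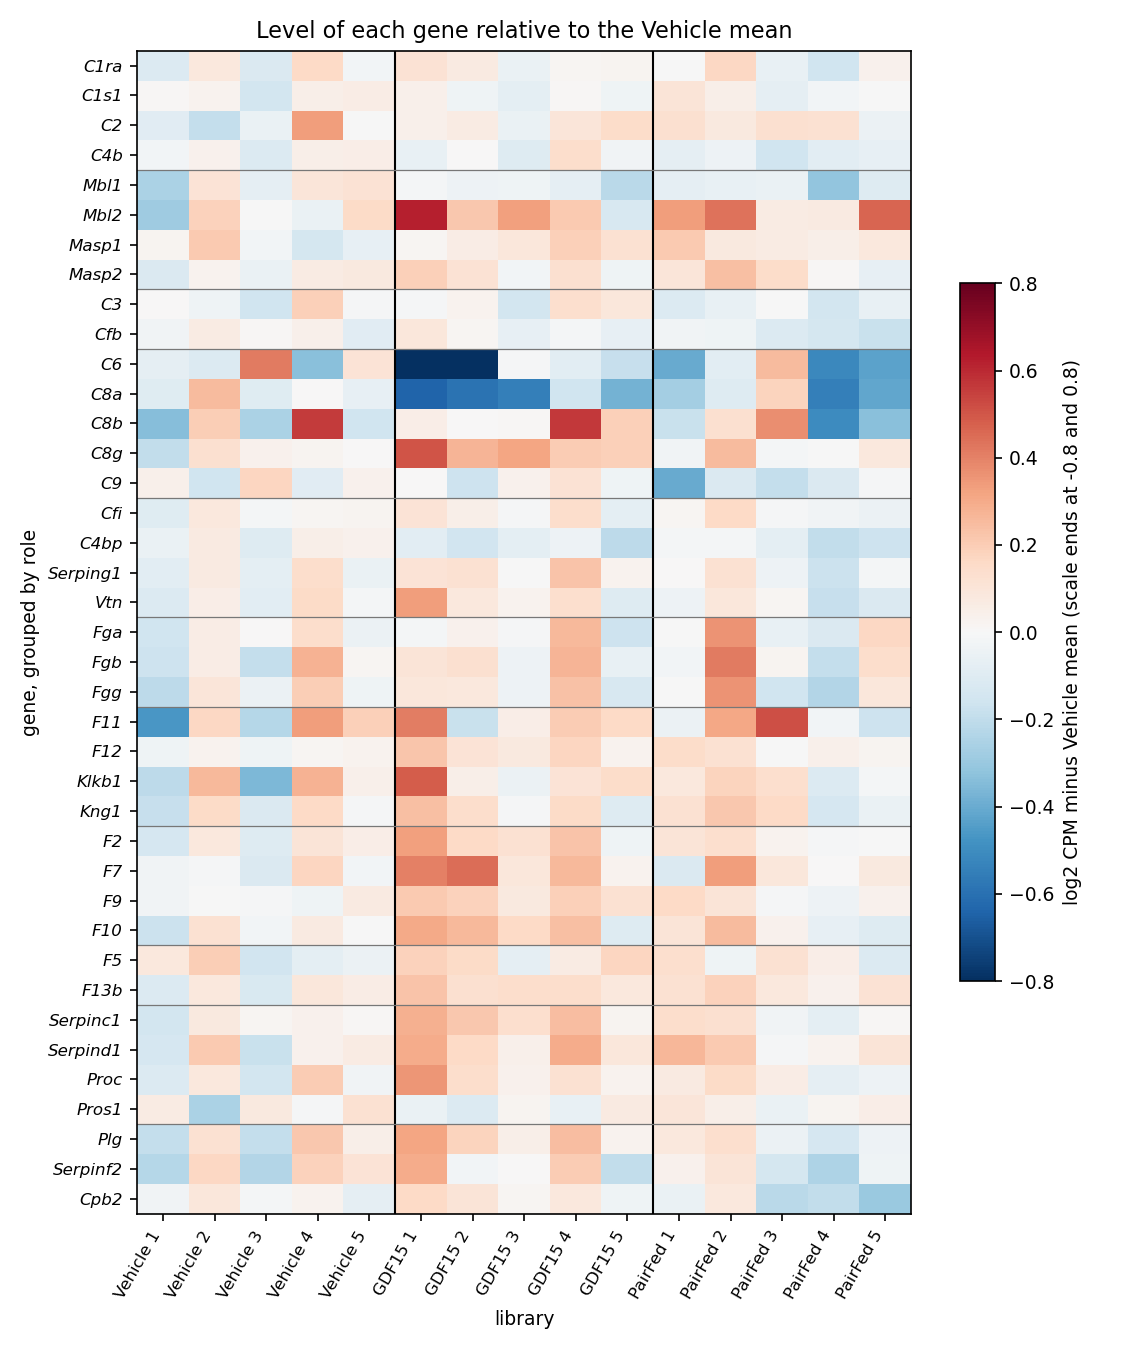
Log2 CPM of each of the 39 genes (rows, grouped by role) in each of the 15 libraries (columns), minus the Vehicle mean of the gene; red is higher and blue lower, with the colour scale ending at 0.8 log2 units. C8a is blue and C8g red in all 5 GDF15 columns, and Vehicle 1 and Vehicle 3 are blue in most rows.

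No other listed gene of the pathways that was tested passed the threshold. Of 33 other complement genes listed, 31 were in the table and 28 were tested; 0 passed the threshold in any comparison, with 4, 7 and 1 of 28 at an unadjusted p below 0.05, beside the 16.7%, 16.9% and 13.3% of all genes. The nearest was Cfd, complement factor D, a protease made mainly in fat, with a log2 fold change of -1.53 ± 0.40 in GDF15 against Vehicle (adjusted p = 0.0547) and -1.41 ± 0.38 in PairFed against Vehicle (0.105). Its level was 7.38 to 15.7 CPM in Vehicle, 2.42 to 5.62 in GDF15 and 0.998 to 8.60 in PairFed, so the GDF15 libraries did not overlap Vehicle. Of 39 other coagulation genes listed, 37 were in the table and 33 were tested; 0 passed in any comparison, with 6, 2 and 3 of 33 at an unadjusted p below 0.05, beside the same shares of all genes.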

How the data were processed

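RNA sequencing of liver from 15 mice was analysed, with 5 libraries in each of 3 groups. The authors deposited 1 estimated count per gene and library as a whole number, not scaled to depth. The submitters' processing notes list Salmon, DESeq2 and build mm10, without versions or roles; no source used here gives the transcript set, the strand setting or the rounding. Libraries were grouped by column names. No column can be matched to the label of an animal, and library numbers are only names. The p-values set the difference between groups against the spread between these libraries.

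Of 15302 genes, 12274 passed filterByExpr (count 10, total count 15) in edgeR 4.0.16 (R 4.3.3) and held 99.9% of the counts. All 15 libraries entered a joint fit by edgeR's quasi-likelihood test (TMM scaling, robust), with Benjamini-Hochberg adjustment over all genes of a comparison and a threshold of 0.05; adjusted p-values in the text are from it unless another test is named. Intervals are at 95%. CPM was computed with TMM factors, and log2 values of CPM used a prior count of 2. Ratios of chain genes were compared by exact permutation tests, adjusted over 21. The edgeR fit was tested on simulated data. Alternatives were DESeq2 1.42.0, limma-voom (limma 3.58.1), other scalings and filters, covariates, fewer groups and each library left out. Given in every library are genes past the threshold and the 3 highest and 3 lowest fold changes of each comparison. The 39 genes and all gene lists were chosen with earlier results of these data known. RefSeq positions (GRCm38.p6) matched 39 of 39 genes, and upstream windows matched 30.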

Additional observations from a re-analysis of the deposited data

Results flagged for a closer look

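In 7 of the 117 gene and group combinations a single library stood apart from the other 4. Its gap to the nearest of them in log2 CPM, as a share of the whole log2 range of the group, was above the critical value of 0.71. Chance alone flags about 1 in 20 groups, which would be 5.85 here, so the number is close to that. C1s1 was lowest in Vehicle 3 at 664 CPM, with the next at 742 (gap 0.774 of the range). C2 was lowest in PairFed 5 at 88.1 CPM, with the next at 96.3 (0.731). Mbl1 was lowest in GDF15 5 at 107 CPM, with the next at 118 (0.719), and lowest in PairFed 4 at 99.8 CPM, with the next at 116 (0.808). Masp1 was highest in PairFed 1 at 167 CPM, with the next at 154 (0.771). C8a was highest in Vehicle 2 at 452 CPM, with the next at 379.6 (0.71016); without that library the log2 fold change of C8a in GDF15 against Vehicle was -0.39 with an adjusted p of 0.111. F9 was highest in Vehicle 5 at 203 CPM, with the next at 193 (0.738).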

How the results depend on the processing

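The count of genes called higher in GDF15 against Vehicle was 1; it was 0 with upper-quartile factors, with no filter, with the immediate-early covariate, in the fit of these groups alone and in the shallower libraries alone (an analysis added after seeing the data), 2 with DESeq2, and 0 to 1 when a library was left out. The count called lower was 0; it was 1 with upper-quartile factors, with at least 10 CPM in 5 libraries, with DESeq2 and in the fit of these groups alone, and 0 to 1 when a library was left out. With DESeq2 the genes were C8a, C8g and F9; otherwise C8a, C8g or both. Leaving out Vehicle 1, 3, 4 or 5, GDF15 1 to 4, or PairFed 1, 3, 4 or 5 ended the C8g call, with adjusted p-values of 0.0505 to 0.124, and C8a passed without GDF15 4, PairFed 3 or PairFed 4. In the other comparisons these counts were 0 under every alternative run. With the immediate-early covariate the log2 fold change of C6 turned from negative to 0.0034, 0.000297 and 0.0031 in GDF15 against Vehicle, PairFed against Vehicle and GDF15 against PairFed; F11 in PairFed against Vehicle turned to -0.0737 with a depth term and lay between -0.00282 (without PairFed 3) and 0.194 when a library was left out. None of these values passed its test. Genes called in the whole table ranged from 8 to 642, from 0 to 340 and from 9 to 257 over the alternatives. The share of higher calls in GDF15 against Vehicle was 69.7%, and 58.7% with upper-quartile factors; in PairFed against Vehicle it was 51.4% and 32.5%. The cause was not tested. No paired analysis was possible because the labels give PairFed and GDF15 mice no shared number. Depth limits the PairFed comparisons, since 4 of the 5 deeper libraries are PairFed: with a depth term the genes called in the whole table went from 35 to 0 in PairFed against Vehicle and from 96 to 9 in GDF15 against PairFed, and from 356 to 364 in GDF15 against Vehicle. The spread between libraries limits C6, C8b and F11.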

Other observations

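Among 27 listed regulators of genes for secreted liver proteins, 3 rose in GDF15 against Vehicle, 0 in PairFed against Vehicle and 2 in GDF15 against PairFed, beside 2.02%, 0.147% and 0.562% of all genes tested. Il6ra, the interleukin receptor chain through which acute-phase genes are induced, had 23.1 to 52.2 CPM in Vehicle, 66.2 to 105.9 in GDF15 and 41.8 to 51.4 in PairFed, so GDF15 lay above both other groups without overlap. Its log2 fold change was 1.15 ± 0.17 against Vehicle (edgeR's quasi-likelihood test, adjusted p = 0.00259) and 0.97 ± 0.17 against PairFed (0.0190). Cebpb, a transcription factor of the acute-phase response, gave 1.26 ± 0.23 against Vehicle (0.0125) and 0.80 ± 0.23 against PairFed (0.150). Ppargc1a, a coactivator of fasting metabolism, gave 1.02 ± 0.17 (0.00371) and 0.86 ± 0.17 (0.0253). Hnf4a, a factor that maintains hepatocyte genes, gave 0.23 ± 0.06 against Vehicle (0.0578). Socs3, a target and inhibitor of interleukin signalling, gave 1.18 ± 0.52 (0.275) and, in PairFed against Vehicle, 1.5 ± 0.51 (0.169). All values for these regulators are from the joint fit without covariates. With the immediate-early covariate 8 genes of the whole table passed in GDF15 against Vehicle. With the depth term 9 passed in GDF15 against PairFed. Whether the regulators were among them is not given here.

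The C1q genes C1qa, C1qb and C1qc, which macrophages express, were lowest in GDF15 1, at 43.4, 39.7 and 41.3 CPM, where the other 14 libraries did not go below 52.2, 59.7 and 57.0 CPM. That library was also the lowest for most markers of Kupffer, endothelial and stellate cells. It was the highest for 6 of 9 hepatocyte markers and for 16 of the 39 complement and coagulation genes.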
